A study of Mus musculus with 10 samples.

Results

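The Zbtb16 locus encodes PLZF, the zinc-finger transcription factor that directs the innate-like differentiation of invariant natural killer T (iNKT) cells, and it was examined here in chromatin accessibility data from thymic iNKT1 and iNKT2 cells. Its members are the deposited accessible regions that overlap the gene body (chr9:48654297-48836222, mm10, minus strand, 181.926 kb) or lie within 50 kb of the gene start. Regions were taken by position alone, but the locus was chosen with earlier results of these data known. They numbered 114 of 94823 regions, 107 touching the gene body and 7 lying upstream of it. The assay was ATAC-seq, which counts where a transposase could insert adapters, mostly in open DNA. The 4 groups were iNKT1 cells of BALB/c mice (n = 2), iNKT1 cells of SKG mice (n = 2), iNKT2 cells of BALB/c mice (n = 3) and iNKT2 cells of SKG mice (n = 3). SKG mice share the BALB/c background and carry a hypomorphic Zap70 mutation, which weakens signaling from the T cell receptor, in all their cells, whereas the BALB/c mice carry the normal gene. By the study's methods the mice were young, age-matched adults, no agent was given, and both subsets were sorted as CD27+ cells and separated by CD122, which marks iNKT1 cells. The Zap70 change is a point mutation, so insertion counts cannot check it.

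iNKT cells recognize glycolipids on CD1d, and PLZF appears in them soon after selection in the thymus. The protein is known to be higher in iNKT2 cells, which make interleukin-4, than in iNKT1 cells, which make interferon-γ. Egr2, Runx1 and E proteins are known regulators of its gene. The gene is split by 6 introns, of which intron 2 (88.181 kb) and intron 4 (51.957 kb) are the longest, and its 2 annotated transcripts start at chr9:48836222 and chr9:48835945. No other gene was annotated in the window. Nnmt lies 49144 bp beyond the far end of the gene and Htr3a 62991 bp upstream of its start.

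The locus was densely covered with regions. By the number of regions in its window it was 3rd of 18111 protein-coding genes, whose median was 9, and by regions per 100 kb it was 5th, with 49.2 against a median of 8.0. Intron 2 held 71 of the members, intron 4 held 20, intron 3 held 8, intron 1 held 3 and intron 5 held 2. The coding exon 2 and the untranslated part of exon 7 held 1 each, 1 region covered both transcript starts, and 7 lay upstream. Their median width, 338.5 bp, and median GC content, 49.4%, were close to those of all regions, 343 bp and 48.7%. Their levels are given in CPM, insertions scaled to the library's total in regions times its TMM scaling factor. Per kb of region, these levels ran from 1.73 to 73.7 with a median of 6.48, against a median of 8.11 over all regions.

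**Figure D1:**
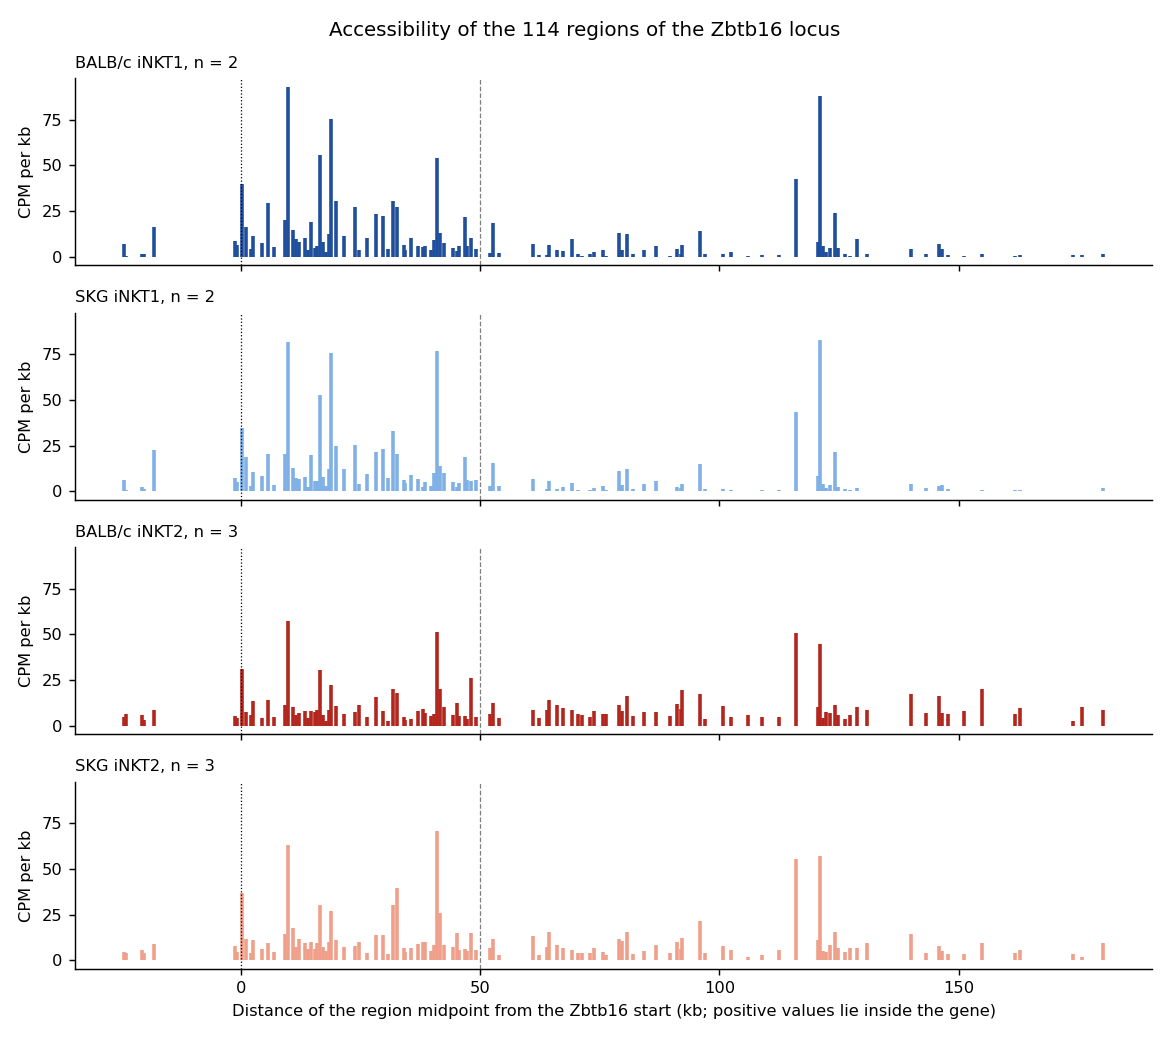
Mean level of each of the 114 regions (vertical axis, CPM per kb) against the distance of its midpoint from the Zbtb16 start (horizontal axis, kb, positive inside the gene), with 1 panel per group. The dotted line marks the start and the dashed line 50 kb. Tall regions crowd the first 50 kb in both iNKT1 panels, and the low regions beyond 50 kb stand higher in both iNKT2 panels.

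The 5 sequences below are the ones on which the results turn. They show the centers of the intronic regions with the smallest adjusted p in iNKT2 against iNKT1 in BALB/c mice (the first 2 higher and the first lower), and the centers of the regions with the smallest adjusted p between SKG and BALB/c in iNKT1 and in iNKT2. They were read from GRCm38.p6, the C57BL/6J reference, from which BALB/c DNA may differ, and are written on the strand of the gene.
Intron 4, 155 kb from the start, chr9:48681111-48681410: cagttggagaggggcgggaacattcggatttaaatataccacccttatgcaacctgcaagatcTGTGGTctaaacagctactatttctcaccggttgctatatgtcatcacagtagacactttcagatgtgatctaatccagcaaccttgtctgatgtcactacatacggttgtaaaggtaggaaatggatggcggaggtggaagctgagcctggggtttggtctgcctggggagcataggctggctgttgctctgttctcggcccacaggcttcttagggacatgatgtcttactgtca
Intron 4, 140.0 kb from the start, chr9:48696099-48696398: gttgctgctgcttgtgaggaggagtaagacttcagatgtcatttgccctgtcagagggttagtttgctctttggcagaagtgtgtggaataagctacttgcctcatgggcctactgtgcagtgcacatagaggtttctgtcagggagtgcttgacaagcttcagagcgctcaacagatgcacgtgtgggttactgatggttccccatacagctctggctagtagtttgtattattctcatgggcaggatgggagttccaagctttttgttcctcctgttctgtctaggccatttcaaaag
Intron 2, 18.8 kb from the start, chr9:48817245-48817544: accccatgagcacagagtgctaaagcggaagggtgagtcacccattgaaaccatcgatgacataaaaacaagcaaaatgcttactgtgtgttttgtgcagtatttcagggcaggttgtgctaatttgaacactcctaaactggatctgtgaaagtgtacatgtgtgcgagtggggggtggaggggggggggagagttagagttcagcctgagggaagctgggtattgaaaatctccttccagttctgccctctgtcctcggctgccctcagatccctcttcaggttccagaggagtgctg
Intron 4, 129 kb from the start, chr9:48707425-48707724: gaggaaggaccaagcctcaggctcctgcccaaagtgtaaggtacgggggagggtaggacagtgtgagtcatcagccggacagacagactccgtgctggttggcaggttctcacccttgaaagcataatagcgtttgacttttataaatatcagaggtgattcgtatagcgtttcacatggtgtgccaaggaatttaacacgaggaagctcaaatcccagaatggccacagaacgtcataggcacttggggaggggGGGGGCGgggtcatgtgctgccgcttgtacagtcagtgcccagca
Intron 2, 32.5 kb from the start, chr9:48803580-48803879: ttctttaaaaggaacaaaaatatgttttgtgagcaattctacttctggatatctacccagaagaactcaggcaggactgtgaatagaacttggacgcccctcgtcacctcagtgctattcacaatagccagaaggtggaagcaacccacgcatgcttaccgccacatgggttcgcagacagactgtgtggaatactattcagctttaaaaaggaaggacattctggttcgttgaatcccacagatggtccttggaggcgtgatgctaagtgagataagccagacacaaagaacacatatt
Capitals mark matches, on either strand, to 8 short motif strings: GNGGGCG for Egr, TGGAAA for NFAT, TGTGGT for Runx, ATCAAAG for Tcf, CAGCTG for E proteins, GGTGTGA for T-box factors, CCGGAAG for Ets and CCACNAGG for CTCF. No match overlapped another. The 155 kb window held 1 Runx string and the 129 kb window 1 Egr string, while none of the 8 strings occurred in the other 3 windows. Over whole regions, the Egr string occurred in 13 of the 114 members (11.4%) and in 23.7% of all regions, the Runx string in 39 members (34.2%) and 36.5% of all regions, and the NFAT string in 30 members (26.3%) and 31.3% of all regions. The E protein string occurred in 16 members (14.0%) against 23.1% of all regions. The Tcf, T-box and Ets strings each occurred in 5 members (4.39%) against 7.57%, 7.47% and 7.15% of all regions, and the CTCF string in 12 (10.5%) against 10.9%. A string is a description of the letters and not evidence of a bound factor.

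Insertions inside all regions numbered 14988590 to 36342635 per library, and 7590 to 22550 of them fell on the locus. Summed accessibility at starts of 4 iNKT1 genes (Tbx21, Ifng, Il2rb, Cxcr3) was 235 to 270.0 CPM in iNKT1 libraries and 55.5 to 82.6 in iNKT2 libraries, and that of 4 iNKT2 genes (Il17rb, Ccr7, Il6ra, Il4) was 58.3 to 81.3 and 88.8 to 164. Within the iNKT2 list the Il4 start did not follow the sum, with means of 22.9 and 33.3 CPM in BALB/c and SKG iNKT1 against 24.3 and 25.8 in BALB/c and SKG iNKT2. The T cell genes Cd3e, Cd3g and Lck summed to 124 to 142 CPM in iNKT1 libraries and 86.6 to 120 in iNKT2 libraries. None of 4 genes of double positive thymocytes (Rag1, Rag2, Ptcra, Cd8b1) had a region within 1 kb of its start. Of 4 myeloid genes Csf1r and Lyz2 had none, and Spi1 and Itgam summed to 24.9 to 33.2 CPM in iNKT1 libraries and 9.69 to 15.3 in iNKT2 libraries. The iNKT17 genes Il23r and Ccr6 together were at 0.220 to 0.835 CPM in iNKT1 libraries and 5.21 to 9.32 in iNKT2 libraries. The floor, the level per kb at percentile 5 of regions, was 0.214 to 0.364 CPM per kb in iNKT1 libraries and 0.612 to 1.92 in iNKT2 libraries. In bulk samples, fewer cells with an open region and less opening per cell cannot be told apart.

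The total accessibility of the locus did not separate the subsets or the genotypes. Insertions summed over the 114 regions came to 607 and 558 CPM in BALB/c iNKT1, 518 and 569 in SKG iNKT1, 564, 479 and 507 in BALB/c iNKT2, and 670.1, 493 and 512 in SKG iNKT2. The groups overlapped, and replicate 1 was the highest library of both iNKT2 groups. In order of their means, BALB/c iNKT1 (583 ± 34.5, SD, n = 2), SKG iNKT2 (558 ± 97.2, n = 3), SKG iNKT1 (544 ± 35.9, n = 2) and BALB/c iNKT2 (516 ± 43.2, n = 3), no neighbors differed beyond their spread. When the sums of all 18111 genes were tested together (edgeR), the log2 change of the locus from iNKT1 to iNKT2 was -0.17 ± 0.13 (SE) in BALB/c (adjusted p = 0.256) and 0.04 ± 0.13 in SKG (adjusted p = 0.836). SKG minus BALB/c was -0.10 ± 0.14 in iNKT1 (adjusted p = 0.887) and 0.11 ± 0.11 in iNKT2 (adjusted p = 0.445), and the interaction, the difference between these genotype changes, was 0.21 ± 0.18 (adjusted p = 0.495). At an adjusted p under 0.01, 54.1%, 28.7%, 0.652%, 18.1% and 0.508% of all genes were called in these 5 contrasts. In BALB/c the median gene changed by -0.25, and library totals without TMM factors, which raised the median of all regions by 0.28, put the locus at 0.11 (adjusted p = 0.59). Without SKG iNKT2 replicate 1, the SKG iNKT2 minus SKG iNKT1 value was -0.11.

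The region over both transcript starts (chr9:48835568-48836410) was open in every group. It held 34.3 and 32.9 CPM in BALB/c iNKT1, 29.6 and 28.9 in SKG iNKT1, 31.4, 21.6 and 25.8 in BALB/c iNKT2, and 39.8, 24.7 and 28.1 in SKG iNKT2. Both BALB/c iNKT1 libraries lay above those of BALB/c iNKT2 and of SKG iNKT1, while SKG iNKT2 overlapped every other group. From iNKT1 to iNKT2 its log2 change was -0.36 ± 0.19 in BALB/c (adjusted p = 0.114) and 0.08 ± 0.19 in SKG (adjusted p = 0.743). SKG minus BALB/c was -0.20 ± 0.21 in iNKT1 (adjusted p = 0.718) and 0.24 ± 0.17 in iNKT2 (adjusted p = 0.331). Its level per kb ranked between 5th and 7th of the 114 regions in every group.

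Beneath the similar sums, single regions differed between iNKT2 and iNKT1 cells of BALB/c mice. Regions were called at an adjusted p under 0.01 and a change of at least 4-fold (edgeR, adjusted over all regions). At this rule 22 of 114 members (19.3%) were higher in iNKT2, against 15.5% of all regions, and 0 were lower, against 6.36%. By DESeq2 and by voom 0 and 1 were lower, and 28 were lower at an unadjusted p under 0.05. Without the 4-fold limit, at an adjusted p under 0.01, 38 members (33.3%) were higher and 14 (12.3%) lower, against 25.7% and 23.4% of all regions. The weakest called change was log2 2.00, and the first member past the p threshold that fell short of 4-fold had log2 1.96. With voom in place of edgeR 20 were higher and 1 lower, against 13931 and 6247 of all 94823 regions. With voom and quantile normalization 12 were higher and 2 lower, against 8787 and 8929 of all regions. After each library's floor was subtracted, 22 were higher and 2 lower, with 20 of the 22 shared, against 12655 and 8196 of all regions. The iNKT17, myeloid and T cell starts given above also moved with the subset, and their part in these counts was not tested.

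The direction of change tended to follow the position along the gene, with exceptions in both stretches. Of the 22 called regions, 21 lay over 50 kb into the gene and 1 lay 24.0 kb upstream. Of the 14 that were lower at an adjusted p under 0.01, 12 lay within 50 kb of the start and 2 lay at about 121 and 124 kb. By that same rule 38 members were higher, 32 of them over 50 kb into the gene and 6 within 50 kb of the start. The log2 change was above 0 in 20 of the 57 members within 50 kb and in 51 of the 57 farther ones. The 57 members within 50 kb had a median log2 change of -0.51 and the 57 farther ones a median of 1.57, while the median of all regions was 0.06. By intron, the median was -0.51 in the first 45 regions of intron 2, 1.54 in its last 26, 1.91 in the 8 of intron 3 and 1.26 in the 20 of intron 4. The boundary of 50 kb is that of the window upstream, but the comparison of both stretches was chosen after the values were seen, so it carries no test. Scaling by library totals raised the median of all regions by 0.28, and over all alternatives the near median ran from -0.60 to -0.23 and the far median from 0.99 to 1.85.

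**Figure D2:**
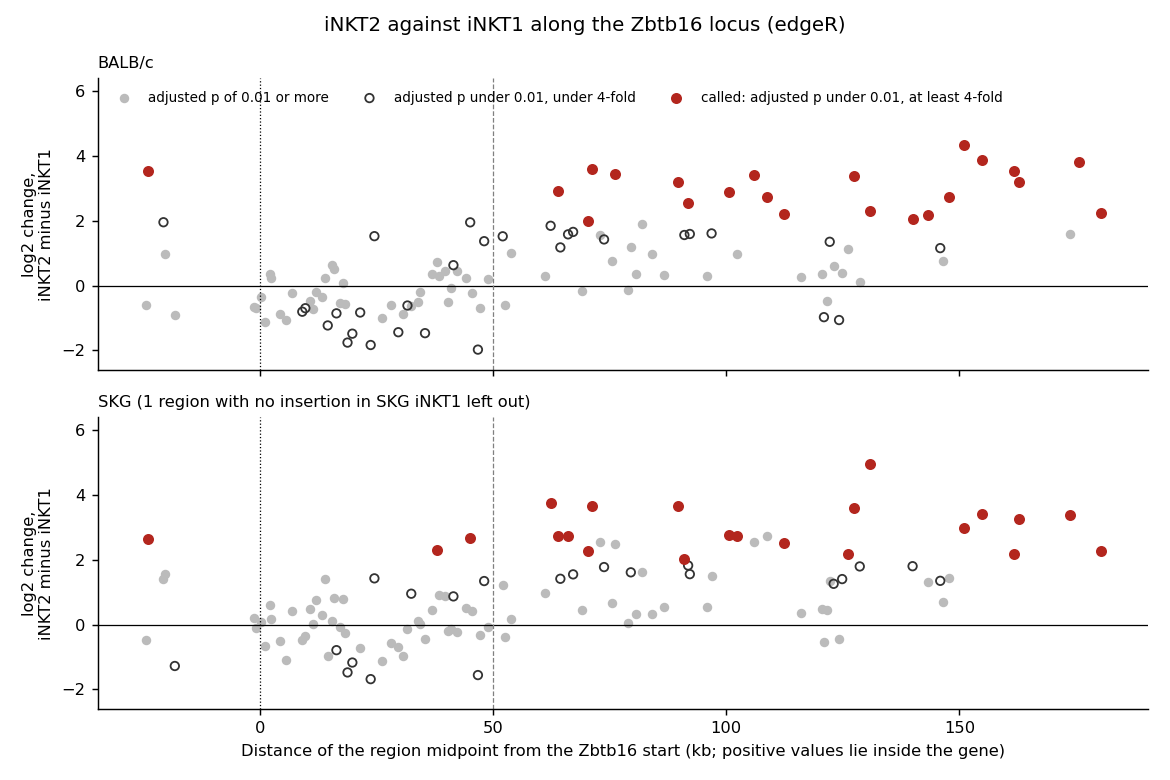
Log2 change from iNKT1 to iNKT2 (vertical axis) of each region against its distance from the Zbtb16 start (horizontal axis, kb), in BALB/c above and SKG below. Gray points did not pass an adjusted p of 0.01, open points passed it with under 4-fold, and red points are called. In BALB/c 21 of the 22 red points lie to the right of 50 kb and 12 of the 14 open points below 0 to its left. To the left of 50 kb, 6 points above 0 passed an adjusted p of 0.01, 1 of them red.

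Level went with position as well, since regions far from the start were weaker, with a median of 4.78 CPM per kb against 7.52 near it. Within the 57 members at or above the median level of 2.27 CPM, the BALB/c median change was -0.62 for 37 near regions and 0.34 for 20 far ones. Within the 57 weaker members it was 0.15 for 20 near regions and 2.00 for 37 far ones. The far median was above the near one in both level classes. Far regions were still the weaker ones within each class, at 9.70 against 13.6 CPM per kb in the stronger class and 3.34 against 4.84 in the weaker. The part of level in the pattern was not tested. Among 256 genes with at least 10 regions in each stretch, the far minus near difference of Zbtb16, 2.09, was 15th from the highest, and the median gene had 0.06. Zbtb16 was 1 of 37 genes with at least 10 regions higher and at least 10 lower at an adjusted p under 0.01, and 9 genes had more regions called higher. Neither count was scaled to the number of regions per gene, by which Zbtb16 was 3rd of 18111. As shares at that adjusted p, 33.3% of its regions were higher and 12.3% lower, against 25.7% and 23.4% of all regions. Its share called higher was 19.3%, against 15.5%.

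The called region of smallest adjusted p lay in intron 4, 155 kb into the gene (chr9:48681005-48681516). It held 0.567 and 0.838 CPM in BALB/c iNKT1 and 9.0, 10.2 and 11.7 in BALB/c iNKT2. It was nearly closed in iNKT1 and open in every BALB/c iNKT2 library, moving from rank 96 to rank 9 of the 114 regions per kb. The log2 change was 3.89 ± 0.32 (adjusted p = 1.2e-07). In SKG the same region went from 0.321 and 0.577 CPM to 5.47, 3.35 and 5.87 CPM. That change was 3.43 ± 0.39 (adjusted p = 3.2e-06), and the libraries of the 2 subsets did not overlap. Within iNKT2, SKG was lower than BALB/c by a log2 change of -1.07 ± 0.22 (adjusted p = 0.00257), under 4-fold.

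A wider region of intron 4, 140.0 kb from the start (chr9:48695827-48696670), was weak in iNKT1 cells but not nearly closed. It ranked 67th of the 114 regions per kb in BALB/c iNKT1 and 61st in SKG iNKT1. Its levels were 3.55 and 3.48 CPM in BALB/c iNKT1 against 15.1, 15.1 and 13.8 in BALB/c iNKT2, a log2 change of 2.06 ± 0.22 (adjusted p = 1.2e-06). In SKG its levels were 2.63 and 4.36 CPM against 13.1, 10.4 and 13.2, a change of 1.81 ± 0.23 (adjusted p = 9.5e-06) that fell short of 4-fold. Its libraries did not overlap between subsets in either genotype.

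The next regions in order of adjusted p were narrow and nearly closed in iNKT1. In intron 3, 101 kb from the start (chr9:48735360-48735740), 0.538 and 0.573 CPM in BALB/c iNKT1 stood against 4.39, 4.36 and 3.75 in BALB/c iNKT2 (log2 2.91 ± 0.32, adjusted p = 1.8e-06). In intron 4, 163 kb from the start (chr9:48673204-48673542), 0.508 and 0.132 CPM stood against 2.98, 3.28 and 3.38 (log2 3.20 ± 0.40, adjusted p = 6.9e-06). In intron 2, 63.9 kb from the start (chr9:48772166-48772465), 0.358 and 0.309 CPM stood against 2.16, 2.78 and 2.89 (log2 2.93 ± 0.37, adjusted p = 7.4e-06). In none of them did the subsets overlap. Over the 22 called regions the median level was 0.301 CPM in BALB/c iNKT1, about 17.5 insertions over both libraries, and 2.30 CPM in BALB/c iNKT2.

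The member of smallest adjusted p in either direction was lower in iNKT2 and lay in intron 2, 18.8 kb from the start (chr9:48817097-48817691). It held 45.2 and 44.6 CPM in BALB/c iNKT1, 43.1 and 46.6 in SKG iNKT1, 14.4, 12.5 and 12.9 in BALB/c iNKT2, and 18.3, 13.7 and 16.2 in SKG iNKT2. All 4 iNKT1 libraries lay far above all 6 iNKT2 libraries, and the genotypes overlapped in iNKT1. Its log2 change was -1.76 ± 0.14 in BALB/c (adjusted p = 9.9e-08) and -1.48 ± 0.14 in SKG (adjusted p = 7.7e-07), under 4-fold in both, and its genotype change in iNKT2 was 0.28 ± 0.13 (adjusted p = 0.132). None of the 14 lower regions reached 4-fold in BALB/c, the largest fall being 3.94-fold, and their median level was 15.1 CPM in BALB/c iNKT1 and 5.14 in BALB/c iNKT2.

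**Figure D3:**
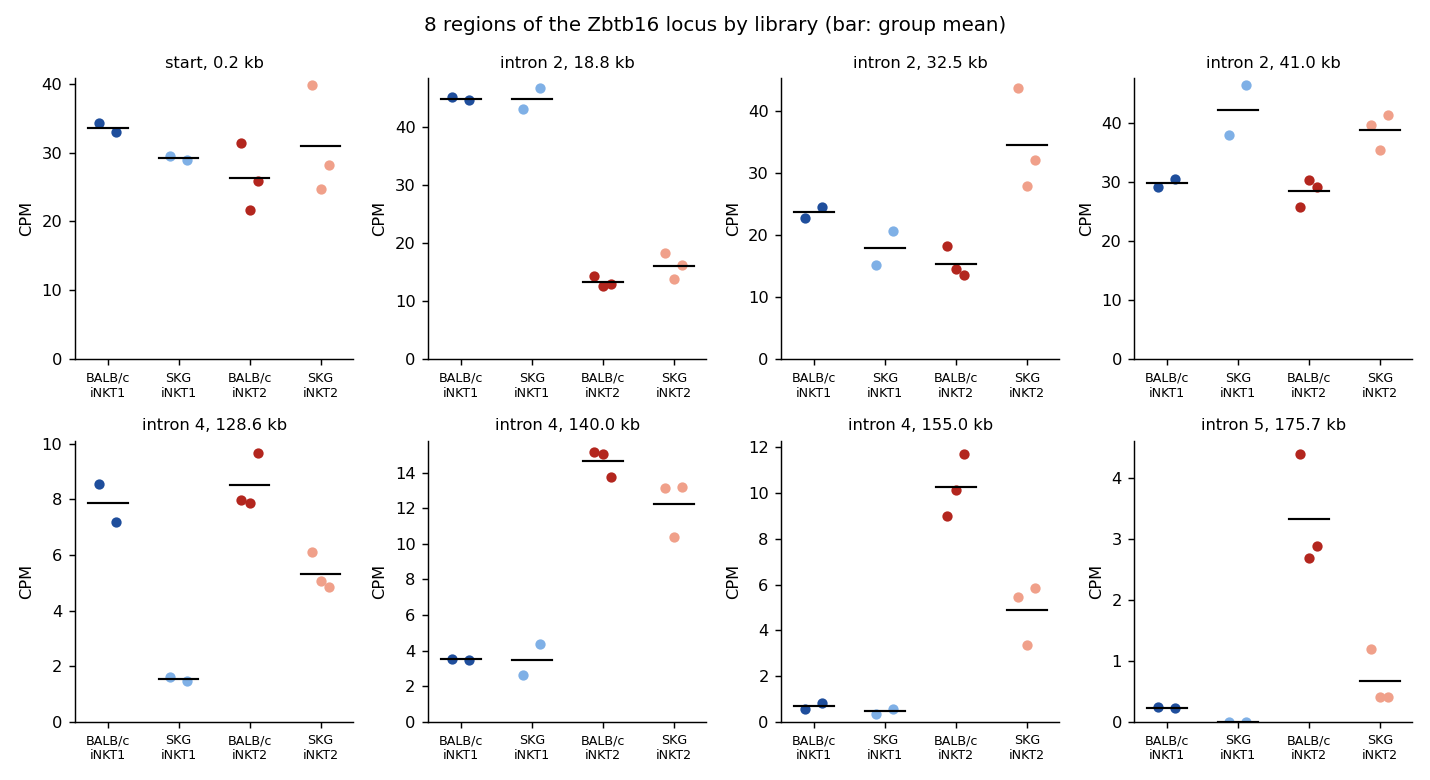
Level in every library (vertical axis, CPM, from 0) of 8 regions named by position, from the start region to intron 5, with the 4 groups on the horizontal axis. Points are libraries and bars group means. At the start region SKG iNKT2 overlaps every other group, the region at 18.8 kb is high in both iNKT1 groups, and the region at 155 kb is high in both iNKT2 groups.

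The balance of the locus differed between the subsets. Both stretches were set against each other after the values were seen, so their sums and shares are descriptions that carry no test. The 57 near regions summed to 458 and 426 CPM in BALB/c iNKT1 and to 340, 256 and 276 in BALB/c iNKT2, and the 57 far regions to 148.7 and 132 CPM against 224, 223 and 230.4. In SKG the near sums were 409 and 441 CPM in iNKT1 and 438, 308 and 326 in iNKT2, and the far sums were 109 and 128 against 232, 185 and 186. The far sums separated the subsets in both genotypes, whereas the near sums overlapped in SKG, where iNKT2 replicate 1 lay among the iNKT1 libraries. The share of the locus insertions over 50 kb into the gene was 24.1% ± 0.589 (SD, n = 2) in BALB/c iNKT1, 21.7% ± 1.01 (n = 2) in SKG iNKT1, 44.0% ± 3.68 (n = 3) in BALB/c iNKT2 and 36.1% ± 1.5 (n = 3) in SKG iNKT2. No share of an iNKT1 library exceeded 24.5% and no share of an iNKT2 library was under 34.6%. With the floor of each library subtracted, the group means were 23.5%, 21.2%, 43.4% and 35.4%. The 10 strongest regions carried 51.4% of the locus insertions in BALB/c iNKT1 and 53.0% in SKG iNKT1, against 33.1% in BALB/c iNKT2 and 40.3% in SKG iNKT2.

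**Figure D4:**
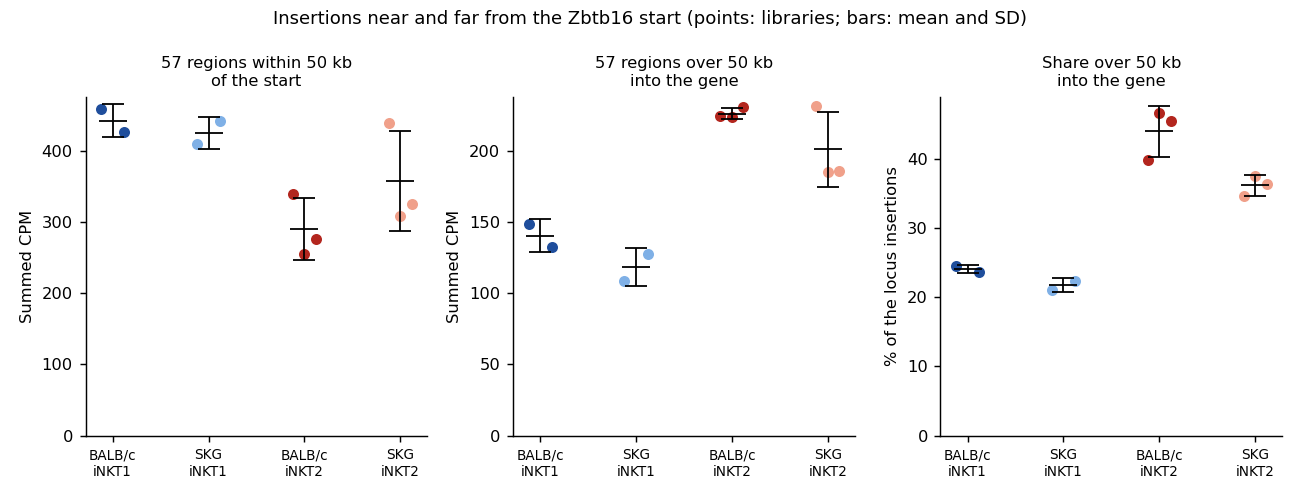
Summed CPM of the 57 regions within 50 kb of the Zbtb16 start (left), of the 57 regions farther into the gene (middle), and the far share of the locus insertions in percent (right), by group. Points are libraries, and bars give the mean and SD (n = 2, 2, 3 and 3). The far share lies between 20.99% and 24.5% in iNKT1 libraries and between 34.6% and 46.6% in iNKT2 libraries. Both stretches were compared after the values were seen.

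The comparison of subsets in SKG mice, which shares no library with that in BALB/c mice, gave a similar picture. In it 23 of 114 members (20.2%) were called higher in iNKT2, against 10.2% of all regions, and 0 lower, against 6.96%. By DESeq2 and voom 0 were lower as well, and 15 were lower at an unadjusted p under 0.05. At an adjusted p under 0.01 alone, 38 members (33.3%) were higher and 6 (5.26%) lower, against 18.4% and 17.6%. Of the regions called higher, 15 were called in both genotypes, 68.2% of the BALB/c list and 65.2% of the SKG list. Of the lower ones 5 were shared, and no region passed the p threshold in opposite directions. Across 113 regions, which are not independent, leaving out the region with no insertion in SKG iNKT1, the 2 changes had the same sign in 97 and a Pearson correlation of 0.89. With no region left out, the correlation was 0.88 over the 114 members and 0.82 over all regions. The overlap of calls over all regions is not given here. The far regions again stood above the near ones, with median log2 changes of 1.62 and 0.02 and a median of 0.14 over all regions, and the sign of the near median turned with the scaling (-0.04 with quantile normalization, 0.21 with library totals). The 23 calls became 13 with voom in place of edgeR, against 6128 of all 94823 regions. They became 6 with voom and quantile normalization, against 3855 of all regions.

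Of the SKG calls not described above, the one in intron 4 at 131 kb (chr9:48705124-48705439) held 0.128 and 0.0642 CPM in SKG iNKT1, from 2 and 1 insertions, and 4.75, 2.66 and 1.69 in SKG iNKT2 (log2 4.95 ± 0.64, adjusted p = 1.2e-05). In BALB/c it went from 0.597 and 0.485 CPM to 3.07, 2.70 and 2.47 (log2 2.32 ± 0.42, adjusted p = 0.000188). It was thus low in iNKT1 and higher in iNKT2 in both genotypes. The region in intron 2 at 45.1 kb (chr9:48790919-48791269), among the 3 SKG calls outside the far stretch, held 0.771 and 0.898 CPM in SKG iNKT1 and 7.31, 3.49 and 5.06 in SKG iNKT2 (log2 2.67 ± 0.36, adjusted p = 1.8e-05). In BALB/c it went from 1.22 and 0.970 CPM to 4.01, 4.39 and 4.53 (log2 1.95 ± 0.31, adjusted p = 6.7e-05), just short of 4-fold. The region in the untranslated part of exon 7 at 180.3 kb (chr9:48655785-48656122) held 0.707 and 0.642 CPM against 3.66, 3.40 and 2.70 (log2 2.28 ± 0.35, adjusted p = 6.5e-05), and was called in BALB/c as well (log2 2.24 ± 0.32, adjusted p = 2.4e-05).

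Genotype moved far fewer regions of the locus than subset. In iNKT1 cells 0 members were called higher in SKG, against 0.281% of all regions, and 1 (0.877%) lower, against 0.732%. Without the 4-fold limit the counts were again 0 and 1, against 0.662% and 1.42%. By DESeq2 and voom 0 were higher too, and at an unadjusted p under 0.05 1 was higher and 10 lower. The median log2 change of the 114 members was -0.15, against -0.03 over all regions.

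The region called lower in SKG iNKT1 lay in intron 4 at 129 kb (chr9:48707167-48707982). It held 8.54 and 7.19 CPM in BALB/c iNKT1 against 1.61 and 1.48 in SKG iNKT1, and 8.0, 7.86 and 9.69 in BALB/c iNKT2 against 6.09, 5.05 and 4.85 in SKG iNKT2. The level was alike in both BALB/c subsets, lower in SKG iNKT2, and lowest in SKG iNKT1, with no overlap between genotypes. SKG minus BALB/c was -2.35 ± 0.26 in iNKT1 (adjusted p = 7.5e-05) and -0.66 ± 0.18 in iNKT2 (adjusted p = 0.0121). The change from iNKT1 to iNKT2 was 0.11 ± 0.19 in BALB/c (adjusted p = 0.644) and 1.80 ± 0.25 in SKG (adjusted p = 2.2e-05). The interaction was 1.69 ± 0.31 (adjusted p = 0.00839). With quantile normalization the change in iNKT1 was -1.99 (adjusted p = 0.00551) and just short of 4-fold.

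The member with the smallest adjusted p among those above 0 in that contrast lay in intron 2 at 41.0 kb (chr9:48794985-48795535) and did not pass. It held 29.2 and 30.5 CPM in BALB/c iNKT1 and 38.0 and 46.5 in SKG iNKT1, and 25.7, 30.3 and 29.2 in BALB/c iNKT2 against 39.7, 35.4 and 41.4 in SKG iNKT2. Every SKG library lay above every BALB/c library. The log2 differences were 0.50 ± 0.15 in iNKT1 (adjusted p = 0.0741) and 0.45 ± 0.12 in iNKT2 (adjusted p = 0.0138), and the subset changes were -0.07 ± 0.14 and -0.12 ± 0.14.

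In iNKT2 cells 0 members were called higher in SKG, against 0.252% of all regions, and 1 (0.877%) lower, against 4.73%. At an adjusted p under 0.01 alone, 1 member was higher and 5 (4.39%) lower, against 4.02% and 10.1%. By DESeq2 and voom 0 were called higher, and 13 were higher and 16 lower at an unadjusted p under 0.05. All 5 lower members were among those higher in the iNKT2 subset of BALB/c at an adjusted p under 0.01, 4 of them lay over 50 kb into the gene, and all 5 had a log2 change under 0 in iNKT1 as well. These comparisons share BALB/c iNKT2 libraries, so their values are given side by side only. The same overlap over all regions is not given here, so the counts are no trait of this locus. The near regions had a median log2 change of 0.25 and the far regions one of -0.27, against 0.01 over all regions. Over all alternatives the near median ran from 0.02 to 0.49 and the far median from -0.42 to -0.05. The lowest near median, 0.02, came without SKG iNKT2 replicate 1, where the far median was -0.41. The far share given above was higher in all 3 BALB/c iNKT2 libraries (39.8% to 46.6%) than in the 3 of SKG (34.6% to 37.5%).

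The region called lower in SKG iNKT2 lay in intron 5 at 176 kb (chr9:48660358-48660684). It held 4.39, 2.70 and 2.89 CPM in BALB/c iNKT2 and 1.19, 0.413 and 0.405 in SKG iNKT2, from 40, 9 and 6 insertions. The genotypes did not overlap, and the log2 change was -2.19 ± 0.39 (adjusted p = 0.000946). The call was lost when replicate 1 of BALB/c iNKT2 (log2 -1.94), or replicate 2 (-1.93) or 3 (-1.98) of SKG iNKT2, was left out. In iNKT1 it held 0.239 and 0.220 CPM in BALB/c and 0 insertions in both SKG libraries. It was called higher in iNKT2 in BALB/c (log2 3.82 ± 0.53, adjusted p = 2.3e-05) and in SKG, where the level in iNKT2 was at least 6.95-fold higher than the floor of 3 insertions over the SKG iNKT1 group.

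The region higher in SKG iNKT2 lay in intron 2 at 32.5 kb (chr9:48803294-48804164). It held 22.7 and 24.6 CPM in BALB/c iNKT1, 15.2 and 20.6 in SKG iNKT1, 18.2, 14.4 and 13.5 in BALB/c iNKT2, and 43.7, 27.9 and 32.0 in SKG iNKT2. SKG iNKT2 was the highest group in every library, and BALB/c iNKT2 was the lowest by its mean. SKG minus BALB/c was 1.17 ± 0.18 in iNKT2 (adjusted p = 0.000214) and -0.40 ± 0.22 in iNKT1 (adjusted p = 0.388), and the interaction was 1.57 ± 0.28 (adjusted p = 0.00703). The subset change was -0.62 ± 0.20 in BALB/c (adjusted p = 0.0123) and 0.96 ± 0.21 in SKG (adjusted p = 0.00121).

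In the interaction 0 members were called in either direction, against 0.189% of all regions above and 0.341% below 0. At an adjusted p under 0.01 alone the regions at 32.5 and 129 kb passed above 0, 2 members (1.75%) against 0.446% of all regions, and 0 passed below 0, against 0.479%. By DESeq2 2 and 0 passed this limit, by voom 1 and 0 and with quantile normalization 0 and 0, and 10 and 0 members passed an unadjusted p of 0.05. The region at 131 kb had the third smallest p, with an interaction of 2.63 ± 0.88 (adjusted p = 0.106). Over the 113 regions with insertions in every group, the genotype changes in the 2 subsets, which share no library, had the same sign in 62 and a Pearson correlation of 0.24.

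**Figure D5:**
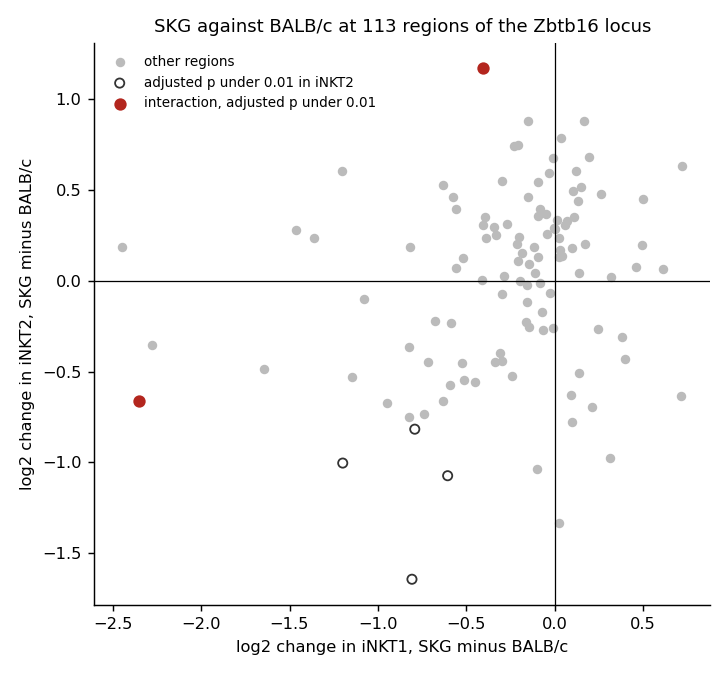
Log2 change from BALB/c to SKG in iNKT1 (horizontal axis) and in iNKT2 (vertical axis) of 113 regions, leaving out the region with no insertion in SKG iNKT1. Red points have an interaction at an adjusted p under 0.01, and open points an adjusted p under 0.01 in iNKT2 alone. One red point lies at -2.35 and -0.66, the other at -0.40 and 1.17.

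The other 3 of the 5 members with the highest level per kb stand beside those at 18.8 and 41.0 kb. The region in intron 2 at 9.79 kb (chr9:48826258-48826614) had the highest mean level per kb over the 4 groups, ranking first in both BALB/c groups and below 1 other member in both SKG groups. It was at 33.4 and 32.9 CPM in BALB/c iNKT1, 26.9 and 31.4 in SKG iNKT1, 24.3, 15.9 and 21.1 in BALB/c iNKT2 and 28.3, 19.6 and 19.8 in SKG iNKT2. It fell by 0.70 ± 0.19 on the log2 scale in BALB/c (adjusted p = 0.00451), and its SKG value was -0.36 ± 0.19 (adjusted p = 0.132). The region in intron 4 at 121 kb (chr9:48715080-48715426), 1 of the 2 far regions that were lower in BALB/c iNKT2, held 32.0 and 29.0 CPM in BALB/c iNKT1 and 19.2, 12.7 and 14.7 in BALB/c iNKT2 (log2 -0.98 ± 0.20, adjusted p = 0.000519). In SKG it held 26.02 and 31.2 against 25.0, 18.4 and 15.8 CPM (-0.53 ± 0.20, adjusted p = 0.0403). The region in intron 3 at 116 kb (chr9:48720028-48720386) was level across the groups, between 13.9 and 21.8 CPM in all 10 libraries, with log2 changes from 0.02 to 0.36 in the 4 pairwise contrasts, none of which passed.

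Genes linked to PLZF were described by their own regions, counted by the same rule and window. A list of 15 genes taken as regulators upstream of Zbtb16 held Egr2, Runx1, Gata3, Myb and the SLAM receptor genes among others. Their place upstream was not tested here. Of their 324 regions, 21 (6.48%) were called higher and 20 (6.17%) lower in BALB/c iNKT2 than iNKT1. Runx1, the Runt factor that binds the Zbtb16 locus, had 7 of 55 higher and 1 lower, and Egr2 had 2 of 19 higher and 0 lower, while Fyn, the kinase downstream of SLAM receptors, had 2 of 62 higher and 10 lower. Of 7 partners and relatives of PLZF, such as Cul3, Bcl6 and Bach2, 23 of 183 regions (12.6%) were higher and 6 (3.28%) lower, 12 of the higher and 5 of the lower ones at Bach2. Of 9 genes taken to depend on PLZF, such as Il4, Icos, Maf and Ccr6, 30 of 223 regions (13.5%) were higher and 14 (6.28%) lower. Ccr6 had 8 of 13 higher and Icos 6 of 39 higher, and Klf2 had 5 of 23 lower. These shares stand beside 15.5% higher and 6.36% lower of all regions. In SKG iNKT1 against BALB/c iNKT1, the regulators had 1 region higher (0.309%) and 4 lower (1.23%), the partners 0 and 0, and the dependent genes 0 and 1 (0.448%), beside 0.281% and 0.732% of all regions. In iNKT2 the regulators had 2 higher (0.617%) and 6 lower (1.85%), the partners 0 and 3 (1.64%), and the dependent genes 1 (0.448%) and 4 (1.79%), beside 0.252% and 4.73% of all regions.

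The 8 motif strings were also counted by direction. The Runx string occurred in 5 of the 22 members called higher in BALB/c iNKT2 and in 9 of the 14 that were lower at an adjusted p under 0.01. Over all regions with the same calls it occurred in 35.5% and 47.4%. The NFAT string occurred in 4 of 22 and 6 of 14 members, against 33.7% and 30.2%, and the Egr string in 2 of 22 and 3 of 14, against 12.1% and 27.9%. The E protein string occurred in 2 of 22 and 1 of 14, against 19.9% and 27.3%, and the Tcf string in 2 and 1, against 12.9% and 6.04%. The T-box string occurred in 0 and 2, against 4.79% and 12.7%, and the Ets string in 1 and 0, against 2.02% and 11.8%. The CTCF string occurred in 2 and 2, against 6.80% and 10.1%. Over 10 libraries, the summed log2 level of Zbtb16 was most like that of the windows of Glb1 (Pearson r = 0.940), Cadm4 (0.930), Tmem222 (0.927), Gnb1 (0.923) and Lamc3 (0.902) among 8179 genes with at least 10 regions. The libraries share their depth and scaling, so this order is a description.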

How the data were processed

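By the study's methods, the authors mapped reads to mm10 with Bowtie 1.0, trimmed unmapped reads with Trim Galore, removed mitochondrial and duplicate reads with Picard, called summits with MACS2 per replicate, expanded them to one size and merged them. The deposited regions are 300.0 bp or wider with a median of 343 bp, and how these widths arose was not settled, which bears on levels per kb. The submitters name the deposited values normalized, yet they are whole numbers whose totals differ between libraries, so they were analysed as raw counts of insertions. If they had been scaled, CPM, floors and p-values would change. Regions were annotated with GENCODE M21. Coordinates are 1-based.

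Counts of all 94823 regions in 10 libraries were fitted with edgeR 4.0.16 (TMM factors, 1 mean per group, quasi-likelihood test, Benjamini-Hochberg adjustment). CPM are scaled to library totals times TMM factors, and standard errors come from the F statistic. The table gives insertions in regions, not full depth, and floors cover counting error only. Alternatives used limma 3.58.1 (voom, the study's own test) and DESeq2 1.42.0. The edgeR fit of regions was tested on simulated data for BALB/c iNKT2 against iNKT1, drawn from the strongest regions. This simulation did not cover weak regions such as those among the called members. Whether libraries of one group came from separate mice is not given in the sources used here, so p-values may measure technical spread. The members and lists were chosen with earlier results of these data known.

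Named regions were the start region, up to 5 called members of smallest adjusted p per pairwise contrast and direction (or the 1 of smallest adjusted p where none was called), the 3 of smallest interaction p and the 5 of highest level per kb. Others were named after their values were seen. Some marker genes and 1 sequence are not reported here. Over regions, iNKT2 libraries of the same number deviated together between BALB/c and SKG (r = 0.492, 0.165 and 0.202). Unlike pairs of numbers 2 and 3 had r = 0.180 and 0.278, as much as the like pairs of these numbers. No unlike pair reached the 0.492 of number 1, and unlike pairs with a number 1 ran from -0.390 to -0.279. The printed values come from the fit without pairs, and the fit with the number as a block was an alternative.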

Additional observations from a re-analysis of the deposited data

Results flagged for a closer look

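2 regions of the locus were picked out because the change from BALB/c to SKG differed between iNKT1 and iNKT2 cells in a test of the difference itself (edgeR interaction, adjusted p under 0.01). The region in intron 2 at chr9:48803294-48804164 had an interaction of 1.57 (adjusted p = 0.00703), from a log2 change of -0.40 in iNKT1 and 1.17 in iNKT2. The region in intron 4 at chr9:48707167-48707982 had an interaction of 1.69 (adjusted p = 0.00839), from -2.35 in iNKT1 and -0.66 in iNKT2. Neither reached 4-fold in the interaction.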

How the results depend on the processing

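Under the alternatives run, single named regions kept their direction, and 187 of 190 of their values without 1 library kept their side of the threshold. Calls were lost for the region at chr9:48660358-48660684 without the libraries named in the report, and, with quantile normalization in voom, 2 regions that came under 4-fold (log2 1.80 at chr9:48655785-48656122 between the SKG subsets, -1.99 at chr9:48707167-48707982 between genotypes in iNKT1). At the looser threshold of an adjusted p under 0.05 and 2-fold, 5 values of named regions that had missed the call passed it.

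Counts of called regions changed more, at the locus and over all regions. Over all regions, the 14725 higher in BALB/c iNKT2 became 8787 with voom and quantile normalization and 25339 at the looser threshold. For iNKT2 against iNKT1 in BALB/c, the 22 higher became 12 with voom and quantile normalization, 11 when regions of a mean under 36.2 insertions (the lower quartile) were dropped, and 41 at the looser threshold. The 0 lower became 2 with voom and quantile normalization, 1 with voom alone, 1 with the replicate block, and 11 at the looser threshold. It became 2 with floors subtracted and 2 without both iNKT2 libraries of number 1, which are alternatives chosen after seeing the data. It ran from 0 to 2 when 1 library was left out (1 without BALB/c iNKT1 replicate 2, 2 without BALB/c iNKT2 replicate 1). In SKG, the 23 higher became 6 with voom and quantile normalization, 13 with voom alone, 11 after this filter and 47 at the looser threshold, and ran from 14 to 25 with 1 library left out. At the looser threshold 7 were lower. For SKG against BALB/c in iNKT1, the 1 lower became 0 with voom and quantile normalization and 2 at the looser threshold. In iNKT2, the looser threshold gave 1 higher and 5 lower, and the 1 lower ran from 0 to 1 with 1 library left out. The interaction had 2 higher at the looser threshold. The cause of these changes was not tested. Where a group of 2 lost a library, the other was assumed to vary like the rest.

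The summed insertions turned sign in BALB/c iNKT2 against iNKT1 with library totals (0.11) and voom with quantile normalization (0.24), and between the genotypes in iNKT2 with the same settings (-0.015 and -0.11). With 1 library left out, the sum ran from -0.11 to 0.13 in SKG iNKT2 against iNKT1 (-0.03 without SKG iNKT1 replicate 1, -0.11 without SKG iNKT2 replicate 1) and from -0.039 to 0.20 in SKG against BALB/c iNKT2 (-0.039 without SKG iNKT2 replicate 1). None of these values passed the threshold. With the replicate block, BALB/c iNKT2 against iNKT1 had 1 lower and 23 higher regions (21 shared with the 22), and the genotype counts were the same in both subsets. Members held a median of 23.5 to 110.5 insertions per library, and weak regions in SKG iNKT1 rest on few.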
